A study of Mus musculus with 24 samples.

Results

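The response of wild type (WT) mouse dendritic cells to lipopolysaccharide (LPS) was read from 8 RNA sequencing libraries, 4 of LPS-treated and 4 of untreated cells, out of 24 in the series. The libraries were taken by their labels alone. Of 38887 genes in the deposited count table, 14188 had enough counts to be tested. The cells were grown from mouse bone marrow. The 24 libraries fall into 6 groups of 4, by an IRE1α label of WT or knockout (KO) and by treatment with zymosan, LPS or neither. The title of the series concerns IRE1α and XBP1 signalling, prostaglandin synthesis and pain. IRE1α is a stress sensor of the endoplasmic reticulum that is encoded by Ern1.

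The main comparison set WT cells given LPS against WT cells left untreated. LPS in WT was then set against zymosan in WT, and the LPS response of WT cells against that of cells labelled KO. Strain, age, culture conditions, LPS dose, exposure time and the form of the KO allele are not given in the sources used here. The sample names attach the treatment to the mice and the extraction note attaches it to the cells, so the place of exposure is not settled by them. Whether the 4 replicates of a group came from different mice or from 1 culture is likewise not stated. The p-values therefore measure the spread between these libraries, part of which may be technical.

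LPS is a component of the outer membrane of Gram-negative bacteria. It is carried to CD14 and then to the complex of TLR4 and MD-2 on the cell surface, which signals through the adaptors MyD88 and TRIF. The MyD88 route leads to NF-κB and MAP kinases and to inflammatory cytokines, and the TRIF route leads through TBK1 and IRF3 to interferon β. Secreted interferon then acts through its receptor and the factors below it on a wide set of antiviral genes. Dendritic cells use such signals to mature: they present more antigen, display costimulatory ligands and migrate to lymph nodes.

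Levels are given as CPM, the count of a gene scaled to a common library total after correction by normalization factors. CPM of different genes are not corrected for gene length and were not compared between genes. A change is the log2 ratio of LPS over untreated cells with an approximate standard error (SE), n = 4 libraries per group. The SE is the size of the log2 ratio divided by the square root of the F statistic of the test named next. It can be too small for genes with few counts in either group. A gene is said to have risen or fallen where edgeR's quasi-likelihood test gave an adjusted p (Benjamini-Hochberg over all 14188 genes) under 0.05. In bulk RNA, fewer cells of a type and less RNA per cell cannot be told apart.

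The 8 libraries held 36778141 to 44803051 counts. Normalization factors were 1.16 to 1.19 in the untreated and 0.880 to 0.916 in the LPS libraries. On the first principal component of their log2 CPM, which held 87.1% of the variance, the untreated libraries lay at -71.8 to -67.0 and the LPS libraries at 67.1 to 72.6. The second component held 2.96%. Untreated replicates 1 and 2 resembled each other, and 3 and 4 each other, more than either did the rest, with a chi-square per gene of 6.95 and 4.15 within these pairs and 16.2 to 21.1 across them. A value near 1 would be counting noise alone. Among the LPS libraries the values were 4.02 for replicates 1 and 2, 9.44 for replicates 3 and 4, and 8.50 to 13.4 across them. LPS replicates 3 and 4 thus did not form a clear pair. The comparisons were repeated with replicates 1 and 2, and 3 and 4, summed in every group, and the text says where that ended a call.

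LPS changed most measured genes. In WT cells 5100 genes rose (35.9% of those tested) and 5629 fell (39.7%), together 75.6%. By more than 2-fold, 1766 rose (12.4%) and 1953 fell (13.8%). In 4822 genes (34.0%) every LPS library lay above every untreated one, and in 5287 (37.3%) every LPS library lay below. The rises reached further than the falls. There were 142 genes with a rise between 4 and 6 on the log2 scale and 67 with a rise above 6, against 26 and 3 with falls of those sizes. The median log2 change of all tested genes was -0.04, and with DESeq2's size factors it was -0.01.

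**Figure D1:**
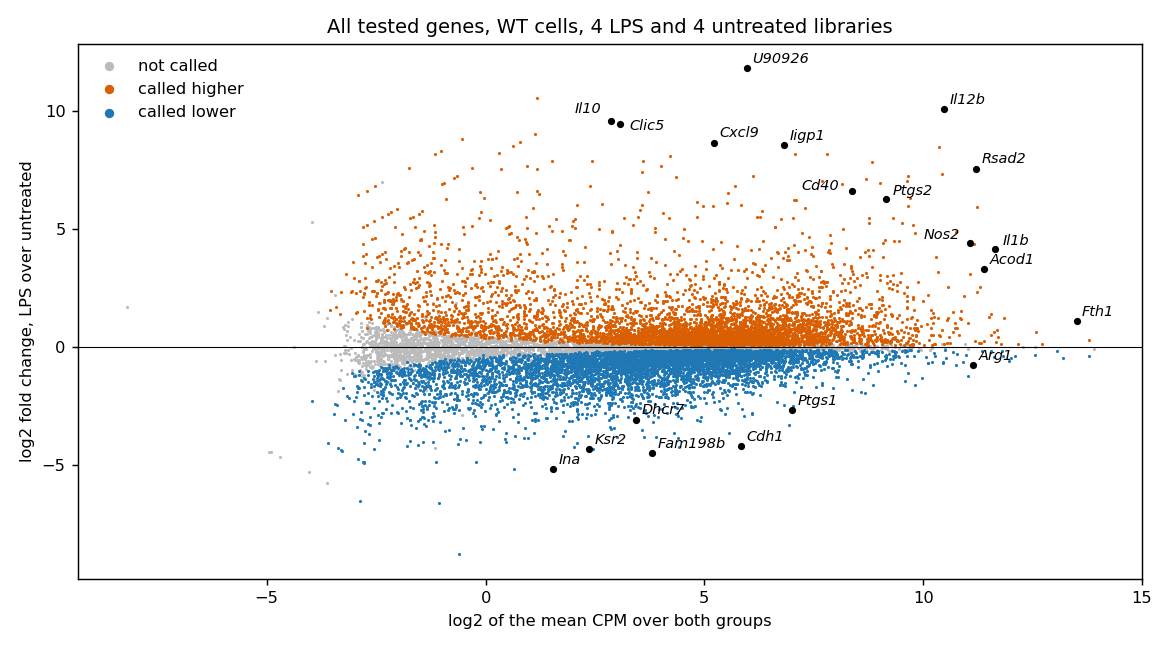
Log2 fold change of each tested gene, LPS over untreated WT cells (y axis), against the log2 of its mean CPM over the 8 libraries (x axis). Genes with no count in either group are not drawn. Orange points are called higher, blue points lower and grey points not called. The points spread further up than down: 209 genes lie above 4 and 29 below -4.

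The most raised genes came to hold a larger share of the counts, which follows in part from choosing them by their rise. The 209 genes that rose by more than 4 on the log2 scale took 0.222% to 0.262% of the counts in the untreated libraries and 6.37% to 6.74% in the LPS libraries. For the 26 antiviral effector genes listed for this report, the share was 0.138% to 0.162% untreated and 2.11% to 2.30% with LPS. Genes that went from under 1 CPM to at least 5 CPM numbered 59, and 9 of these reached at least 50 CPM. In the opposite direction 16 genes went from at least 5 CPM to under 1 CPM. The calls were most frequent among protein-coding genes, of which 78.7% were called, and less frequent among long intergenic RNAs (53.2%), antisense RNAs (48.7%) and processed pseudogenes (43.3%), classes whose difference was not tested.

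The genes were then read by role, in 39 lists that hold 669 genes, of which 638 were tested. Of the other 31, 27 had too few counts and 4 were not matched by name. Each list is described by its counts of rises and falls and by its median, to be read against the 35.9%, 39.7% and -0.04 of all tested genes.

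**Figure D2:**
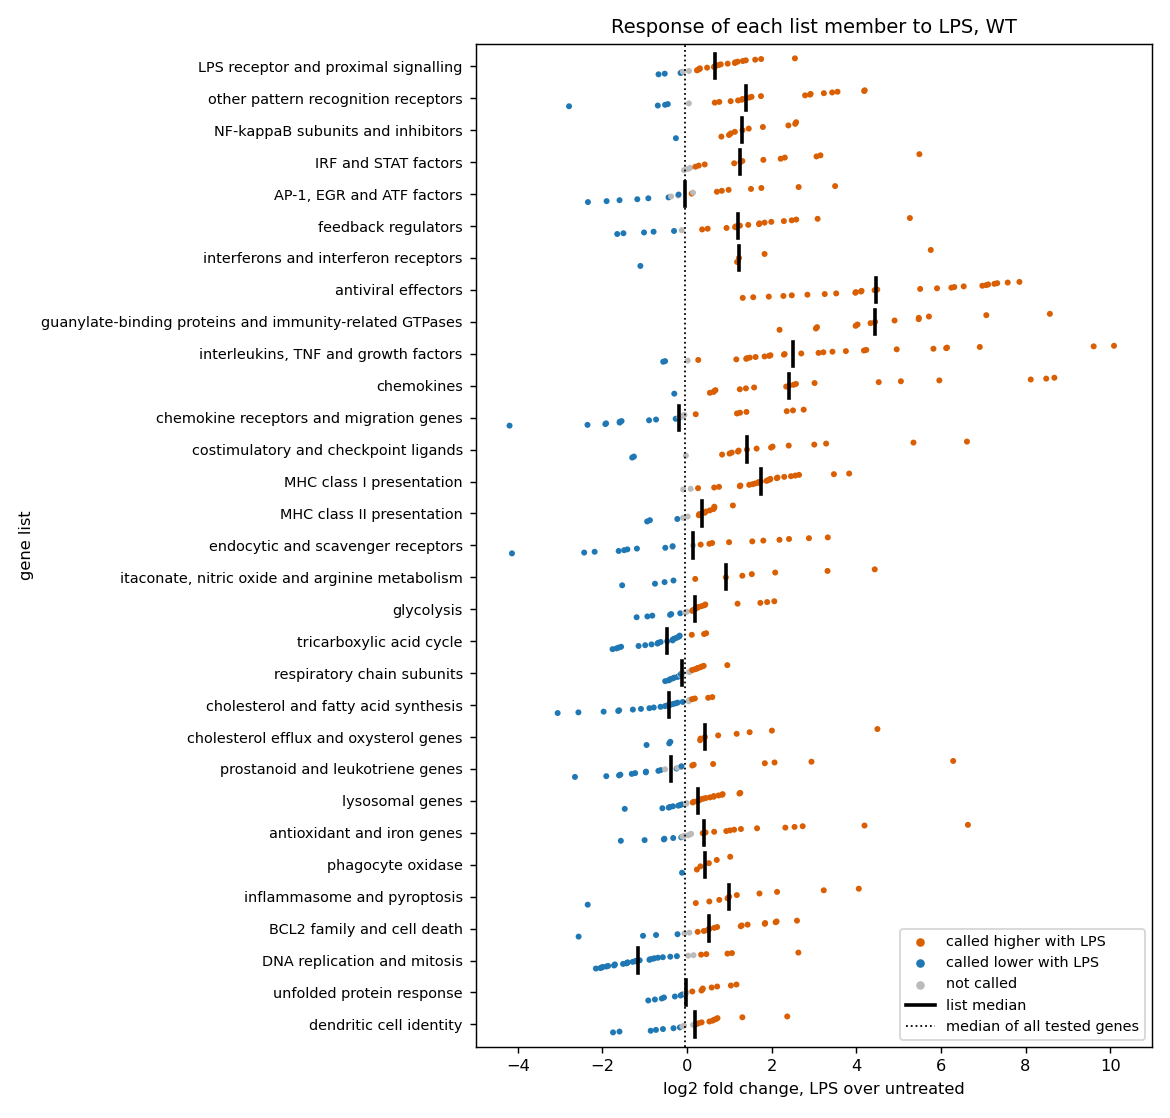
Log2 fold change, LPS over untreated WT cells (x axis), of each tested member of 31 gene lists (y axis). Orange points are called higher, blue lower and grey not called. Black bars are list medians and the dotted line is the median of all tested genes. The antiviral and GTPase lists lie furthest right, with medians of 4.46 and 4.44, and the replication list furthest left, at -1.16.

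The receptor for LPS itself fell while most of its partners rose. Tlr4, the receptor (ENSMUSG00000039005, chromosome 4, 66827584 to 66930284, plus strand), was at 159, 148, 154 and 137 CPM in the 4 untreated libraries and at 102, 105, 109 and 98.1 CPM in the 4 LPS libraries. All LPS libraries lay below all untreated ones. The fall was 0.53 ± 0.06 on the log2 scale (adjusted p = 1.98e-08). Cd14, the co-receptor that hands LPS to it, was at 311, 307, 246 and 235 CPM untreated and 833, 819, 842 and 860 CPM with LPS. Every LPS library lay above every untreated one, a rise of 1.61 ± 0.07 or 3.05-fold. Ly96, which encodes MD-2, rose by 1.14 ± 0.13 (untreated 3.38 to 3.53 CPM, LPS 6.31 to 8.66 CPM).

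Of the 25 genes of the receptor and its proximal signalling, 19 rose and 4 fell (median 0.65). The adaptor gene Myd88 rose by 1.13 ± 0.07 (86.9 to 90.7 CPM untreated, 179 to 211 with LPS) and Ticam1, which encodes TRIF, by 0.80 ± 0.05. Peli1, a ubiquitin ligase that acts on IRAK proteins, rose most (2.55 ± 0.07). It was followed by Map3k8, the kinase TPL2 that feeds the ERK branch (1.75 ± 0.08). Tbk1 and Ikbke, the kinases that phosphorylate IRF3, rose by 1.2 ± 0.05 and 1.39 ± 0.06. The members that went against the list, besides Tlr4, were the kinase genes Irak1 (-0.67 ± 0.04) and Irak4 (-0.13 ± 0.04) and the TAK1-binding protein gene Tab1 (-0.15 ± 0.06). With replicate pairs summed, Irak4 and Tab1 were no longer called (adjusted p = 0.0789 and 0.16). Irak2, which takes part in sustained signalling, rose by 0.75 ± 0.04.

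Sensors of other microbial products rose with LPS in 18 of 23 cases and fell in 4 (median 1.39). The 3 largest rises were those of Ifih1, Tlr3 and Zbp1. Ifih1, which encodes the cytosolic RNA sensor MDA5 (untreated 28.6 to 33.4 CPM, LPS 517 to 602 CPM) showed a rise of 4.20 ± 0.11. Tlr3, the endosomal sensor of double-stranded RNA (untreated 3.41 to 4.33 CPM, LPS 63.4 to 74.3 CPM) showed a rise of 4.19 ± 0.14. Zbp1, a sensor of Z-form nucleic acids, rose by 3.56 ± 0.11. In none of these did the groups overlap. Clec4e, the receptor Mincle for mycobacterial glycolipids, rose by 2.79 ± 0.08 and Tlr2, which senses bacterial lipoproteins, by 1.31 ± 0.07. The 4 that fell were Tlr5, the flagellin receptor (-2.79 ± 0.55, 0.332 to 0.366 CPM untreated), Tmem173, which encodes STING (-0.69 ± 0.05), Tlr13, a sensor of bacterial ribosomal RNA (-0.52 ± 0.06), and Clec4n, which encodes dectin-2 (-0.46 ± 0.05).

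NF-κB factors are held in the cytosol by inhibitors of the IκB family, and several of their genes are themselves NF-κB targets. Of 11 subunit and inhibitor genes 10 rose and 1 fell (median 1.31). Nfkbia, which encodes IκBα (ENSMUSG00000021025, chromosome 12, 55489410 to 55492647, minus strand), was at 349.8, 385, 361 and 347 CPM untreated and at 892, 859, 882 and 945 CPM with LPS. The groups did not overlap, and the rise was 1.31 ± 0.07 or 2.48-fold (adjusted p = 6.49e-15). Nfkb2, the subunit p100 and p52 (untreated 96.6 to 105 CPM, LPS 566 to 649.7 CPM) showed a rise of 2.56 ± 0.04. Nfkbiz, the nuclear IκBζ needed for a subset of secondary targets such as Il6, rose by 2.58 ± 0.07 and Nfkbib by 2.40 ± 0.05. Rela, the main transactivating subunit, rose by 0.81 ± 0.04. Nfkbid, another nuclear IκB protein, fell by 0.26 ± 0.06 (untreated 25 to 29.7 CPM, LPS 21.9 to 23.9 CPM).

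The promoter windows of some of these genes hold the NF-κB consensus close to the start of transcription. Windows were taken from RefSeq (GRCm38.p6), 250 bases before to 50 after each start, and searched on both strands. The following stretches lie upstream of the start and show the matches in capitals, with overlapping matches run together. Nfkbia and Nfkb2 show the inhibitor and subunit genes, Cxcl1, Cxcl2 and Il6 a set of secreted signals described further on, and Sod2 the mitochondrial superoxide dismutase.
Nfkbia, chr12:55492648-55492696, minus strand: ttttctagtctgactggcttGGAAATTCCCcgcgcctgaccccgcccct
Nfkb2, chr19:46304678-46304736, plus strand: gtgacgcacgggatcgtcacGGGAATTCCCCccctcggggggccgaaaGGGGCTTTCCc
Cxcl1, chr5:90891154-90891204, plus strand: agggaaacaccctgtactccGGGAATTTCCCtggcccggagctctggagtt
Cxcl2, chr5:90903782-90903832, plus strand: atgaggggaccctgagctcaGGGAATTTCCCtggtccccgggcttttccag
Il6, chr5:30013050-30013099, plus strand: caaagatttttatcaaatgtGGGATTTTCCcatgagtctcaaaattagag
Sod2, chr17:13007736-13007785, plus strand: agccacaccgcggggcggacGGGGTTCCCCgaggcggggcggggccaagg

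Over all tested genes with a window, 5.25% of 13286 windows held the NF-κB consensus. A gene with several starts can give several windows. The share was 66.7% (8 of 12 windows, from 8 genes) for the NF-κB subunit and inhibitor list. It was 45.5% (5 of 11, from 11 genes) for chemokines and 39.1% (9 of 23, from 21 genes) for MHC class I genes. By size of response it was 7.60% of windows of genes that rose by more than 4 on the log2 scale, 8.20% for rises of 1 to 4, 5.53% for smaller rises, 4.83% for genes not called and 4.28% for falls below -1. A match is a description of these letters and not of a factor bound there. Il12b and Ptgs2, strongly raised genes described further on, had no match to the NF-κB consensus in the bases before the start.

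Of 22 feedback regulators 16 rose and 5 fell (median 1.2). Usp18, which removes ISG15 from proteins and blocks interferon receptor signalling (untreated 18.3 to 26.7 CPM, LPS 769.7 to 918 CPM) showed a rise of 5.27 ± 0.15. Socs3, an inhibitor of signalling by the interleukin 6 receptor, was at 129, 133, 135 and 136 CPM untreated and 1081, 1103, 1089.7 and 1254 CPM with LPS, a rise of 3.09 ± 0.05. Both genes lay far above the untreated range in each LPS library. Socs1, which curbs interferon signalling, rose by 2.47 ± 0.13, and Tnfaip3, the ubiquitin editor A20, by 1.83 ± 0.05. The phosphatase gene Dusp2 rose by 2.58 ± 0.13, Irak3, an IRAK that blocks signalling, by 1.45 ± 0.04 and Zfp36, which destabilises cytokine mRNAs, by 1.15 ± 0.05. Falls were seen in Sigirr, a negative regulator of the receptor family (-1.65 ± 0.15), in Cd200r1, an inhibitory receptor of myeloid cells (-1.50 ± 0.07), and in Trib1 (-1.02 ± 0.11).

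Interferon β was near the limit of detection. Ifnb1 (ENSMUSG00000048806, chromosome 4, 88522025 to 88522774, minus strand) had 2 counts over the 4 untreated libraries and 106 over the 4 LPS libraries, with 0.719, 0.616, 0.751 and 0.816 CPM in the latter. The ratio of counts was 69.7 (95% interval 18.8 to 583, counting error only). The genes of interferon α and λ that were listed (Ifna1, Ifna2, Ifna4, Ifna5, Ifnl2 and Ifnl3) had 0 to 4 counts in all and were not tested. Of the receptor genes, Ifnar1 rose by 1.23 ± 0.04 and Ifnar2 by 1.83 ± 0.04. Ifngr1, the ligand-binding chain of the interferon γ receptor, fell by 1.10 ± 0.05 (untreated 82.1 to 91.5 CPM, LPS 38.7 to 42 CPM).

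Of 15 genes of the IRF and STAT families 12 rose and none fell (median 1.26). Irf7, the factor that amplifies interferon production (ENSMUSG00000025498, chromosome 7, 141262706 to 141266481, minus strand), was at 22.8, 22.6, 28.8 and 35.3 CPM untreated and at 1358, 1195, 1125 and 1253 CPM with LPS. It was the most changed of this list (5.49 ± 0.18, 45-fold, adjusted p = 2.28e-19). Stat2, a signal transducer below the interferon receptor, rose by 3.06 ± 0.08. Its libraries lay at 76.6 to 94.8 CPM untreated and 668 to 726 CPM with LPS. Irf3, which is activated by phosphorylation, rose by 0.28 ± 0.05, and Stat4 by 0.42 ± 0.10. The changes of Irf4 (-0.07 ± 0.06), Irf5 (0.02 ± 0.04) and Irf2 (0.07 ± 0.05) were not called.

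All 26 genes of the antiviral effector list rose, each by more than 2-fold, with a median of 4.46. Summed over the list the level was 1184 to 1389.6 CPM in the untreated libraries and 23000.3 to 26094 CPM with LPS. Rsad2, which encodes the antiviral enzyme viperin (ENSMUSG00000020641, chromosome 12, 26442746 to 26456452, minus strand), was at 15.7, 20.9, 21.9 and 39.7 CPM untreated and at 4785, 4191, 4817 and 5042 CPM with LPS. Untreated replicate 4 lay highest in its group, and every LPS library lay far above it. The rise was 7.58 ± 0.28, or 191-fold (adjusted p = 3.06e-18). Isg15, the ubiquitin-like modifier, was at 16.3, 16.1, 23.5 and 26 CPM untreated and 1682, 1525, 1636 and 1700.4 CPM with LPS, a rise of 6.32 ± 0.17. Ifit1, an RNA-binding inhibitor of viral translation, was at 7.21, 9.49, 9.89 and 19.6 CPM untreated and 1503, 1399.8, 1642 and 1710.2 CPM with LPS, a rise of 7.07 ± 0.27. In both genes untreated replicate 4 was again the highest of its group. Oasl1 (7.86 ± 0.19) and Ifit2 (7.33 ± 0.27) rose by similar amounts, and the smallest rise of the list was that of Samd9l (1.32 ± 0.06).

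All 13 tested genes of the guanylate-binding proteins and immunity-related GTPases, which attack the membranes of vacuoles that hold pathogens, rose by more than 2-fold (median 4.44). Iigp1 was at 0.398, 0.414, 0.668 and 0.843 CPM untreated and 236, 197, 234 and 234 CPM with LPS, a rise of 8.58 ± 0.24. Untreated replicate 4 was above the other untreated libraries and below every LPS library. Gbp2 rose by 4.90 ± 0.13 (Gbp2 at 3232 to 3449 CPM with LPS) and Irgm1, a regulator of the family, by 4.03 ± 0.15. Tgtp1 and Tgtp2 rose by 5.72 ± 0.23 and 7.07 ± 0.20. These are near-identical copies, as are the Oas1, Ifit3 and Gbp genes, so their separate values are less certain than the fact that they rose together.

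The interferon-stimulated response element, to which proteins of the IRF family bind, was searched as the letters GAAANNGAAA on both strands. On the opposite strand the same word reads TTTCNNTTTC. Cxcl10, a chemokine described further on, holds this word once and the NF-κB consensus in 2 places. Ifit1 and Ifit3 hold the word in 2 places each, Isg15 in 3 overlapping copies, and Rsad2 and Gbp2 once each.
Cxcl10, chr5:92348963-92349122, minus strand: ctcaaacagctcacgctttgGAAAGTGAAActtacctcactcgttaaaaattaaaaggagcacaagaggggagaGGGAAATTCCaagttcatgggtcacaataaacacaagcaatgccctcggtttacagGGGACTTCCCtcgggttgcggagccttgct
Ifit1, chr19:34640765-34640833, plus strand: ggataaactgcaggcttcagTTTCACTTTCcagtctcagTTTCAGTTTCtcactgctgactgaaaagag
Ifit3, chr19:34583353-34583436, plus strand: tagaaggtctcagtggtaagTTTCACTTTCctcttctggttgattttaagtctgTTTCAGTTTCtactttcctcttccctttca
Isg15, chr4:156200855-156200916, minus strand: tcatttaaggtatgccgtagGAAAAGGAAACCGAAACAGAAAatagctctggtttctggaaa
Rsad2, chr12:26456543-26456592, minus strand: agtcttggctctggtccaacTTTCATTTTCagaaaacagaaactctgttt
Gbp2, chr3:142620584-142620633, plus strand: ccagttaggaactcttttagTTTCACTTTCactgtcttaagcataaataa

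Matches to this word went with the size of the rise. They stood in 24.6% of windows (42 of 171) of genes that rose by more than 4 on the log2 scale and in 7.46% (101 of 1354) for rises of 1 to 4. The share was 2.66% for smaller rises, 3.04% for genes not called and 2.35% for falls below -1, against 3.32% of the windows of all tested genes. For the GTPase list 8 of 10 windows from 9 genes held it (80.0%), and for the antiviral list 12 of 27 windows from 22 genes (44.4%). Ifit2, Irf7, Cmpk2, Tap1 and Cxcl9, which rose by 2.65 to 8.68, had neither word in the bases before the start. These shares were not tested, and genes of 1 family share sequence by descent.

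**Figure D3:**
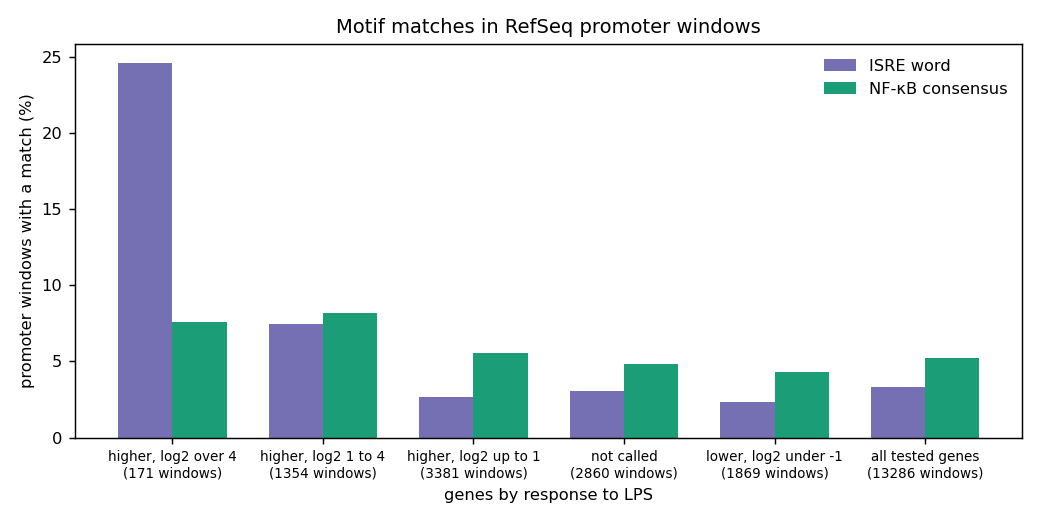
Percent of RefSeq promoter windows (y axis) that hold the interferon-stimulated response element word (purple) or the NF-κB consensus (green), for genes grouped by their response to LPS (x axis). Bars are shares of the windows counted under each label. The purple bar is 24.6% for the largest rises and 3.32% over all tested genes.

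Several of these genes lie side by side in the genome and moved together. All 6 tested Ifit genes within 99.3 kb of chromosome 19 rose (median 7.03), as did all 13 tested members of the Ifi200 family within 681 kb of chromosome 1 (median 4.54), a family of intracellular DNA-binding proteins that includes Aim2. All 7 Oas genes within 177 kb of chromosome 5, all 8 Slfn genes within 264 kb of chromosome 11, and all 3 of Casp1, Casp4 and Casp12 within 74.5 kb of chromosome 9 rose. The Gbp genes rose in both of their clusters, with 4 of 4 on chromosome 3 and 4 of 4 on chromosome 5. Members of such families share sequence, and the counts of near copies can share reads.

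**Figure D4:**
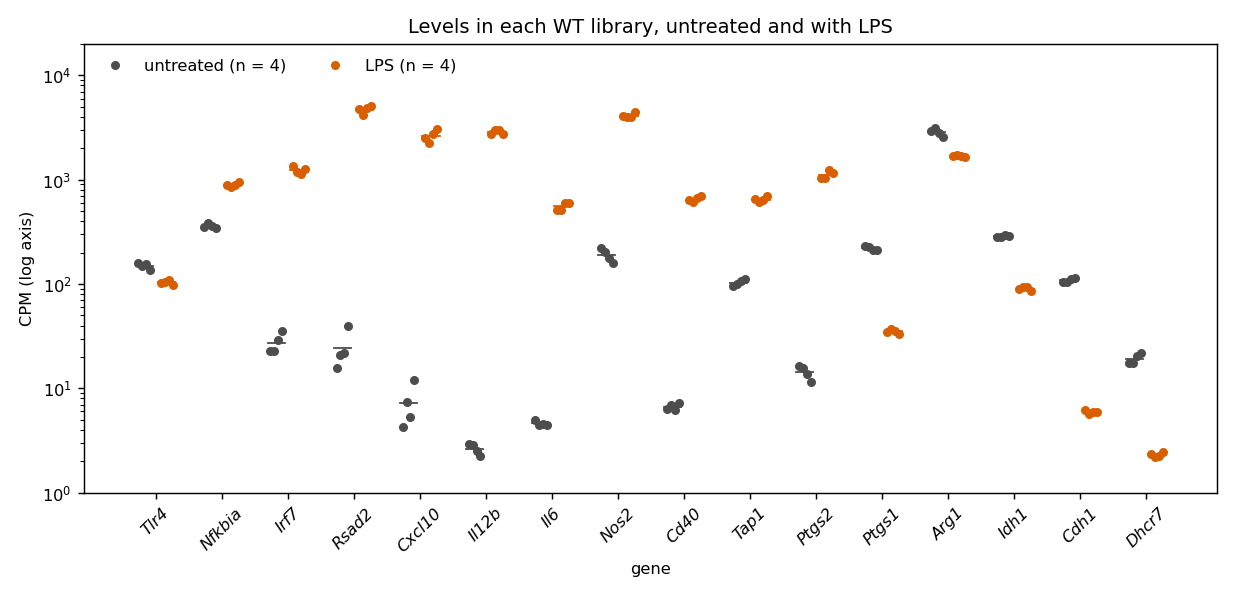
CPM (log axis) of 16 genes in the 4 untreated (grey) and 4 LPS (orange) WT libraries, with 1 point per library and a line at each group mean. No gene shown has overlapping groups. Il12b lies at 2.24 to 2.9 CPM untreated and 2737 to 2980.3 CPM with LPS, and Cdh1 at 105 to 113 and 5.7 to 6.17 CPM.

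Secreted cytokines rose in 25 of 28 cases and fell in 2 (median 2.50). Il12b, the shared chain of interleukins 12 and 23 that drives T helper cells (ENSMUSG00000004296, chromosome 11, 44400063 to 44414033, plus strand), was at 2.9, 2.85, 2.52 and 2.24 CPM untreated and at 2737, 2980.3, 2971 and 2767 CPM with LPS. The untreated libraries were all under 3 CPM, far below every LPS library. The rise of 10.09 ± 0.12 (adjusted p = 2e-27) was among the largest of all genes. Its partner chains Il12a and Il23a rose by 5.82 ± 0.13 and 4.24 ± 0.17, from under 1 CPM in both. Il6, the acute phase cytokine, was at 4.98, 4.43, 4.55 and 4.48 CPM untreated and 516, 517, 604 and 593 CPM with LPS, a rise of 6.92 ± 0.12. Il1b, the pyrogenic cytokine that caspase 1 cleaves, was at 348, 363, 321 and 309 CPM untreated and 5718, 5996, 6367 and 6261 CPM with LPS, a rise of 4.18 ± 0.06. It was already present in every untreated library, unlike Il6 and Il12b, which were near the floor. Tnf rose by 1.83 ± 0.08 (untreated 182 to 207 CPM, LPS 628 to 769 CPM).

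The anti-inflammatory cytokine gene Il10 (ENSMUSG00000016529, chromosome 1, 131019845 to 131024974, plus strand) had 3 counts over the 4 untreated libraries and 2134 over the 4 LPS libraries, with 14.2, 14.3, 16 and 13.8 CPM in the latter. Its ratio by counts has an interval of 319.6 to 4539 (95%, counting error only). Il18 rose by 4.96 ± 0.13 (untreated 0.288 to 0.67 CPM, LPS 13.7 to 14.8 CPM), Il27 by 6.12 ± 0.14 and Il15 by 3.44 ± 0.08. Tnfsf10, which encodes the death ligand TRAIL, rose by 6.14 ± 0.16. Tgfb1, which restrains T cell responses, rose by 0.26 ± 0.07. The members that went against the list were Csf1, the macrophage growth factor, at 179 to 204 CPM untreated and 125 to 141 CPM with LPS (-0.52 ± 0.06), and Ltb, lymphotoxin β (-0.56 ± 0.13). Vegfa changed by 0.02 ± 0.06 and was not called.

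Of 19 chemokine genes 18 rose and 1 fell (median 2.41). The ligands of CXCR3, which attract T and NK cells, rose most. Cxcl10 (ENSMUSG00000034855, chromosome 5, 92346638 to 92348889, minus strand) was at 4.25, 7.36, 5.26 and 12.1 CPM untreated and 2489, 2250.4, 2722 and 3033 CPM with LPS, a rise of 8.49 ± 0.26. Cxcl9 was at 0.133, 0.145, 0.194 and 0.23 CPM untreated and 72, 77.4, 73.9 and 72.2 CPM with LPS, a rise of 8.68 ± 0.19. Cxcl11 rose by 8.12 ± 0.22. For Cxcl10 untreated replicate 4 was the highest of its group, and no untreated library came near the LPS range. Ccl5, which draws T cells and monocytes, was at 85.9, 90, 62.1 and 65.8 CPM untreated and 4861, 4636, 4464 and 4989 CPM with LPS, a rise of 5.96 ± 0.11. The neutrophil attractants Cxcl1 and Cxcl2 rose by 4.53 ± 0.15 and 2.41 ± 0.10. The single fall was that of Ccl6 (-0.30 ± 0.05), a chemokine of myeloid cells (untreated 6271 to 6842 CPM, LPS 5269 to 5579 CPM).

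The Cxcl genes on chromosome 5 lie in 1606 kb that also hold other strongly raised genes. All 7 tested Cxcl genes of this stretch rose. Among the 15 other tested genes between them 7 rose and 5 fell. U90926 (ENSMUSG00000029409, chromosome 5, 92209893 to 92215408, minus strand), annotated as protein-coding and without a textbook role, was at 0.0664, 0, 0.0216 and 0.0383 CPM untreated and 126, 117, 129.5 and 127 CPM with LPS. It was near 0 in every untreated library, and its rise of 11.83 ± 0.23 (adjusted p = 1.8e-23) was the largest of any named gene at 5 CPM or more. Ereg and Areg, growth factors of the epidermal growth factor receptor that were chosen here after their values were seen, rose by 4.56 ± 0.43 and 3.39 ± 0.59. The platelet chemokine genes of the same stretch, Ppbp and Pf4, also chosen after their values were seen, changed by -0.08 ± 0.16 and 0.31 ± 0.09. The first of these was not called, and the second was no longer called with replicate pairs summed (adjusted p = 0.0666).

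Genes of migration changed in both directions, with 7 rises and 11 falls of 22 tested (median -0.19). Ccr7, the receptor that guides mature dendritic cells to lymph nodes (ENSMUSG00000037944, chromosome 11, 99144196 to 99155077, minus strand), was at 142, 146, 116 and 121 CPM untreated and 331, 336, 346 and 375 CPM with LPS, a rise of 1.40 ± 0.08. Fscn1, the actin bundler of mature dendritic cells, rose by 2.76 ± 0.08, and the formyl peptide receptor genes Fpr1 and Fpr2 rose by 2.50 ± 0.08 and 2.36 ± 0.07. The receptors for inflammatory recruitment moved the other way. Ccr2, the receptor for CCL2 on monocytes, was at 649, 641, 660.1 and 625 CPM untreated and 160, 163, 187 and 165 CPM with LPS, a fall of 1.93 ± 0.08. Cdh1, the adhesion protein E-cadherin (ENSMUSG00000000303, chromosome 8, 106603351 to 106670246, plus strand), was at 105, 105, 111 and 113 CPM untreated and 6.17, 5.7, 5.98 and 5.88 CPM with LPS. Every untreated library was above 100 CPM and every LPS library under 7, a fall of 4.20 ± 0.07 or 18.3-fold (adjusted p = 1.04e-24). S1pr1, a receptor for the lipid sphingosine 1-phosphate, fell by 2.35 ± 0.11.

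Costimulatory ligands rose in 14 of 17 cases and fell in 2 (median 1.42). Cd40, through which T helper cells license dendritic cells (ENSMUSG00000017652, chromosome 2, 165055627 to 165072948, plus strand), was at 6.37, 6.93, 6.21 and 7.16 CPM untreated and 636, 615, 665 and 704 CPM with LPS, a rise of 6.62 ± 0.10. Cd86, a ligand of CD28, was at 56.5, 58.3, 49.1 and 49.3 CPM untreated and 220.4, 209, 218 and 218 CPM with LPS, a rise of 2.02 ± 0.08. Cd274, which encodes the inhibitory ligand PD-L1, rose by 1.99 ± 0.04 (untreated 309.9 to 329.6 CPM, LPS 1238 to 1335 CPM). The groups of these 3 genes did not overlap. Cd70, the ligand of CD27, rose by 5.35 ± 0.17 from under 1 CPM, and Cd200, an inhibitory ligand, by 3.29 ± 0.07. Havcr2, which encodes TIM-3, and Vsir, which encodes VISTA, are inhibitory molecules and fell by 1.30 ± 0.14 and 1.26 ± 0.09.

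Presentation by MHC class I rose as a group. Of 25 genes 23 rose and none fell, with a median of 1.74 and a summed level of 7059 to 8149 CPM untreated and 19498 to 20703 CPM with LPS. Tap1, a chain of the peptide transporter (ENSMUSG00000037321, chromosome 17, 34187553 to 34197225, plus strand), was at 94.7, 100.2, 107 and 111 CPM untreated and 647, 605, 641 and 691 CPM with LPS, a rise of 2.65 ± 0.05. Nlrc5, the transactivator of class I genes, rose by 3.47 ± 0.11, and the class I gene H2-T22 by 3.83 ± 0.07. The subunits of the immunoproteasome rose more than those they replace. Psmb9, Psmb10 and Psmb8 rose by 2.46 ± 0.04, 2.56 ± 0.06 and 1.60 ± 0.05, and the constitutive Psmb6, Psmb7 and Psmb5 by 1.47 ± 0.05, 0.64 ± 0.04 and 0.26 ± 0.05, a difference between genes that was not tested. B2m, the light chain of every class I molecule, rose by 1.26 ± 0.05 (B2m at 5067 to 5477 CPM with LPS).

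Of 14 MHC class II genes 9 rose and 3 fell (median 0.35), and 1 rose by more than 2-fold. H2-Aa, a class II chain, was at 877, 987, 947 and 944 CPM untreated and 1287, 1291, 1393 and 1471 CPM with LPS, a rise of 0.54 ± 0.05. March1, a ubiquitin ligase that removes class II and CD86 from the surface, rose by 1.08 ± 0.07, and Ciita, the class II transactivator, by 0.28 ± 0.04. The peptide editors H2-DMa and H2-DMb2 fell by 0.94 ± 0.05 and 0.88 ± 0.06. The thiol reductase gene Ifi30 fell by 0.23 ± 0.08, a call that ended with replicate pairs summed (adjusted p = 0.111).

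Receptors for uptake were divided, with 10 rises and 9 falls of 21 (median 0.14). This median took the opposite sign in 12 of 16 alternative settings and lies near 0. The Fcγ receptor genes Fcgr4 and Fcgr1 rose by 3.33 ± 0.12 and 2.88 ± 0.14, and the scavenger receptor gene Marco by 2.41 ± 0.07 (untreated 79.5 to 94.9 CPM, LPS 454 to 487 CPM). Lectin receptors went both ways, and several fell while Clec4e, described above among the sensors, rose. Mrc1, the mannose receptor, was at 108, 114, 144 and 133 CPM untreated and 42.4, 43.1, 50.6 and 51.4 CPM with LPS, a fall of 1.41 ± 0.10. Clec10a fell by 2.43 ± 0.13 and Clec4b1 by 2.18 ± 0.10. Cd163, the haemoglobin scavenger receptor, fell by 4.14 ± 0.47 from 0.496 to 0.862 CPM.

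Of 11 genes of itaconate, nitric oxide and arginine metabolism 7 rose and 4 fell (median 0.92). Nos2, the inducible nitric oxide synthase (ENSMUSG00000020826, chromosome 11, 78920787 to 78960254, plus strand), was at 221, 205, 178 and 158 CPM untreated and 4108, 3979, 3963 and 4427 CPM with LPS, a rise of 4.44 ± 0.09 or 21.6-fold. Acod1, which makes itaconate from an intermediate of the tricarboxylic acid (TCA) cycle, was at 448, 434, 532 and 539.8 CPM untreated and 4729.9, 4622, 4998 and 5163 CPM with LPS, a rise of 3.32 ± 0.09. Both were expressed without LPS in every library. Gch1, which makes the cofactor of nitric oxide synthase, rose by 2.08 ± 0.07, and Slc7a2, an arginine transporter, by 1.31 ± 0.04 (Slc7a2 at 4067 to 4167 CPM with LPS). Arg1, which competes for arginine, fell by 0.76 ± 0.08 (untreated 2558 to 3113 CPM, LPS 1645 to 1717 CPM), while Arg2 rose by 1.53 ± 0.12. The other falls were in Aldh18a1 (-1.53 ± 0.08), Odc1 (-0.53 ± 0.04) and Asl (-0.32 ± 0.05).

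Genes listed for the TCA cycle, a list that also holds cytosolic forms such as Idh1, fell in 18 of 21 cases and rose in 3 (median -0.47). Idh1, the cytosolic form (ENSMUSG00000025950, chromosome 1, 65158616 to 65186500, minus strand), was at 280.2, 285, 292 and 289 CPM untreated and 88.9, 94.1, 92.8 and 85.1 CPM with LPS, a fall of 1.67 ± 0.05. Of the mitochondrial forms, Idh2 fell by 1.56 ± 0.06, and the subunit genes Idh3a, Idh3b and Idh3g fell by 1.62 ± 0.06, 0.84 ± 0.04 and 0.99 ± 0.05. Suclg2 fell by 1.76 ± 0.11 and Fh1, fumarate hydratase, by 1.15 ± 0.05. Sdhb, of succinate dehydrogenase, fell by 0.22 ± 0.04. The exceptions were Dld (0.45 ± 0.05), Cs, the citrate synthase (0.40 ± 0.03), and Sucla2 (0.11 ± 0.04), the last of which lost its call with replicate pairs summed (adjusted p = 0.126). Respiratory chain subunits went both ways, with 8 rises and 11 falls of 24 and none past 2-fold (median -0.11). Their extremes were Uqcrfs1 (0.95 ± 0.05) and Ndufs1 (-0.52 ± 0.03).

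Glycolytic genes rose in 13 of 21 cases and fell in 6 (median 0.19). Hif1a, the hypoxia factor, was at 393, 373, 358 and 339 CPM untreated and 1242, 1185, 1255 and 1179 CPM with LPS, a rise of 1.73 ± 0.06. Pfkfb3, whose product stimulates phosphofructokinase, rose by 2.06 ± 0.07 and Slc2a6, a glucose transporter of the lysosome, by 1.89 ± 0.07. Ldha, lactate dehydrogenase, rose by 0.27 ± 0.05. Gpi1, which catalyses the second step of glycolysis, was at 2909, 3002, 2854 and 2845 CPM untreated and 1288, 1324, 1178 and 1290.5 CPM with LPS. Every LPS library lay below every untreated one, and the fall was 1.19 ± 0.07. The glucose transporter genes Slc2a1 and Slc2a3 fell by 0.37 ± 0.04 and 0.82 ± 0.21, and Pfkm fell by 0.94 ± 0.13.

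Sterol and fatty acid synthesis fell in 17 of 24 cases and rose in 4 (median -0.43). Dhcr7, the last enzyme of cholesterol synthesis (ENSMUSG00000058454, chromosome 7, 143823145 to 143848410, plus strand), was at 17.6, 17.6, 20.2 and 21.7 CPM untreated and 2.34, 2.22, 2.23 and 2.48 CPM with LPS, a fall of 3.06 ± 0.10. Elovl6, a fatty acid elongase, fell by 2.57 ± 0.13 and Fasn, fatty acid synthase, by 1.97 ± 0.07. Among the rises were those of Idi1 (0.60 ± 0.07), Pmvk (0.50 ± 0.07) and Insig1 (0.12 ± 0.04), the last not called with replicate pairs summed (adjusted p = 0.11).

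Among 11 genes of sterol efflux and oxysterols 8 rose and 3 fell (median 0.42). Ch25h, which makes the oxysterol 25-hydroxycholesterol (ENSMUSG00000050370, chromosome 19, 34473778 to 34475164, minus strand), was at 5.53, 5.07, 7.85 and 9.08 CPM untreated and 151, 142, 158 and 175 CPM with LPS, a rise of 4.50 ± 0.20. Untreated replicate 4 was the highest of its group. Nr1h3, the oxysterol receptor LXRα, rose by 2.01 ± 0.11 and Npc2, a sterol carrier of the lysosome, by 1.48 ± 0.06. The transporter genes Abca1 and Abcg1 rose by 0.32 ± 0.06 and 0.42 ± 0.08. Soat1, which esterifies cholesterol, Lipa, which frees it, and Npc1 fell by 0.96 ± 0.06, 0.42 ± 0.08 and 0.40 ± 0.05.

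In the prostanoid and leukotriene list 7 of 22 genes rose and 12 fell (median -0.38). The inducible and the constitutive cyclooxygenase moved in opposite directions. Ptgs2, the inducible form (ENSMUSG00000032487, chromosome 1, 150100031 to 150108227, plus strand), was at 16.3, 15.5, 13.7 and 11.5 CPM untreated and 1032, 1039, 1227 and 1154 CPM with LPS. Ptgs1, the constitutive form, was at 233, 228, 213 and 209.9 CPM untreated and 34.9, 37.1, 35.8 and 33.2 CPM with LPS. Their log2 changes were 6.29 and -2.65, and neither gene's groups overlapped. Ptges, the synthase of prostaglandin E2, rose by 2.94 ± 0.07, and Alox12, a lipoxygenase at 0.345 to 0.724 CPM untreated, by 2.07 ± 0.23. Alox5, the first enzyme of leukotriene synthesis, was at 104, 103, 88.3 and 90.3 CPM untreated and 23.8, 26.9, 24.3 and 27.5 CPM with LPS, a fall of 1.91 ± 0.09. Alox5ap, Lta4h and the leukotriene B4 receptor gene Ltb4r1 fell by 0.97 ± 0.06, 1.23 ± 0.06 and 1.61 ± 0.11. Ltc4s, the leukotriene C4 synthase, changed by -0.23 ± 0.12 and was not called. Ptger4, a prostaglandin E2 receptor gene, rose by 0.12 ± 0.05, which was not called with replicate pairs summed (adjusted p = 0.111).

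Of 26 lysosomal genes 16 rose and 8 fell (median 0.26), 2 and 1 of them by more than 2-fold. The cathepsin genes Ctsc and Ctsl rose by 1.26 ± 0.07 and 1.24 ± 0.05. Atp6v0d2, a subunit of the proton pump, fell by 1.47 ± 0.14 (untreated 165 to 244 CPM, LPS 70.3 to 77 CPM). Tfeb, a master regulator of lysosomal genes, fell by 0.58 ± 0.07. Of 6 genes of the phagocyte oxidase 5 rose and 1 fell. Among the rises was Cybb, the catalytic subunit (1.02 ± 0.05).

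Antioxidant and iron genes rose in 13 of 24 cases and fell in 6 (median 0.40). Sod2, the mitochondrial superoxide dismutase, was at 225, 228, 234 and 239 CPM untreated and 1285, 1316, 1337 and 1455 CPM with LPS, a rise of 2.54 ± 0.05. Of the iron genes, Hamp, which encodes hepcidin, rose by 6.64 ± 0.32 from under 0.1 CPM, and Cp, the ferroxidase ceruloplasmin, by 4.19 ± 0.11. Lcn2, which binds bacterial iron carriers, rose by 2.73 ± 0.17 (Lcn2 at 962 to 1019 CPM with LPS), and Slc40a1, the iron exporter ferroportin, by 1.66 ± 0.11. Tfrc, the transferrin receptor, was at 90, 82.3, 72.3 and 68.6 CPM untreated and 26, 25.8, 29 and 25 CPM with LPS, a fall of 1.57 ± 0.08. Gpx1 fell by 1.00 ± 0.07 and Cat, catalase, by 0.55 ± 0.04. Hmox1, haem oxygenase 1, rose by 0.93 ± 0.05 and Slc7a11, the cystine transporter, by 1.01 ± 0.10.

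Of 11 inflammasome and pyroptosis genes 10 rose and 1 fell (median 1.00). Casp4, which encodes the mouse caspase 11 that binds LPS in the cytosol (ENSMUSG00000033538, chromosome 9, 5308828 to 5336783, plus strand), was at 10.8, 11.5, 12.2 and 11.4 CPM untreated and 197, 181, 195 and 191 CPM with LPS, a rise of 4.06 ± 0.09. Casp1 rose by 3.23 ± 0.09 and Nlrp3, the sensor that forms the inflammasome, by 0.76 ± 0.06. Mefv, which encodes pyrin, rose by 2.13 ± 0.10. Nlrp1b fell by 2.35 ± 0.17 (untreated 6.45 to 7.52 CPM, LPS 1.01 to 1.63 CPM).

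Among 21 tested genes of the BCL2 family and cell death 15 rose and 4 fell (median 0.53). Bcl2, an inhibitor of apoptosis (ENSMUSG00000057329, chromosome 1, 106538178 to 106714274, minus strand), was at 21.6, 18.8, 20.4 and 17.8 CPM untreated and 2.61, 3.32, 3.88 and 3.4 CPM with LPS, a fall of 2.56 ± 0.09. Its relative Bcl2a1b rose by 1.27 ± 0.05, with the reserve that it has near-identical copies. Cflar, which blocks caspase 8, rose by 2.09 ± 0.06. In necroptosis Mlkl, which perforates the membrane, rose by 2.60 ± 0.06 and Ripk3, the kinase above it, fell by 1.04 ± 0.06. Bmf, a killer protein of the BCL2 family, fell by 0.73 ± 0.12.

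DNA replication and mitosis genes fell in 25 of 32 cases and rose in 5, with a median of -1.16. Ccna2, cyclin A2 (ENSMUSG00000027715, chromosome 3, 36564865 to 36572150, minus strand), was at 17.9, 19.7, 18.1 and 16.3 CPM untreated and 4.1, 4.39, 4.27 and 4.62 CPM with LPS, a fall of 2.05 ± 0.09. Rrm2, a subunit of ribonucleotide reductase, and Ccnb1, cyclin B1, fell by 2.15 ± 0.11 and 2.01 ± 0.09. Mcm2, of the replicative helicase, fell by 1.43 ± 0.08. Mki67, a proliferation marker, was at 125, 118, 118 and 112 CPM untreated and 131, 137, 133 and 125 CPM with LPS. The lowest LPS library stood at the level of the highest untreated one, and the change of 0.15 ± 0.08 was not called (adjusted p = 0.0691). Ccnd2, cyclin D2, rose by 2.63 ± 0.07 (Ccnd2 at 1107 to 1182 CPM with LPS) while Ccnd1 fell by 0.40 ± 0.06. Cdkn1a, the inhibitor p21, rose by 0.96 ± 0.05, and Tyms, thymidylate synthase, by 1.06 ± 0.05. In the promoter windows of this list, 32 from 27 genes, the word CCAAT stood in 24 (75.0%, against 37.9% for all tested genes). The E2F words TTTGGCGC and TTTCCCGC stood in 6 of them (18.8%, against 2.78%). Both strands were searched, and these shares were not tested.

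The list of AP-1, EGR and ATF factors was divided. Of its 18 genes 8 rose and 7 fell, and the median of -0.05 changed sign in 3 of 16 alternative settings. Batf2 and Batf, factors of interferon-activated and T cell responses, rose by 3.50 ± 0.11 and 2.64 ± 0.08. Junb rose by 0.98 ± 0.12. Fos was at 22.3, 22, 22.4 and 23.2 CPM untreated and 7.73, 7.87, 6.7 and 7.45 CPM with LPS, a fall of 1.60 ± 0.06. Egr3 and Myc, genes that many growth signals induce, fell by 2.34 ± 0.13 and 1.90 ± 0.05. All LPS libraries lay below all untreated ones in these 3 genes.

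The unfolded protein response, the pathway of the sensor named in the labels, was also divided, with 8 rises and 7 falls of 17. Its median of -0.02 crossed or reached 0 in 6 of 16 alternative settings. Hspa5, the chaperone BiP, was at 872, 879, 972 and 953 CPM untreated and 1981, 1953, 2192 and 2131 CPM with LPS, a rise of 1.17 ± 0.07. Ddit3, which encodes the factor CHOP, rose by 1.04 ± 0.06 and Manf by 0.71 ± 0.06. Among the sensors of the pathway Eif2ak3, which encodes PERK, fell by 0.92 ± 0.06 and Ern1 by 0.55 ± 0.05 (untreated 40.2 to 43.3 CPM, LPS 27.1 to 29.9 CPM), while Atf6 rose by 0.36 ± 0.04. Xbp1 changed by -0.03 ± 0.05 and was not called. Its count does not separate spliced from unspliced mRNA. Atf4 fell by 0.15 ± 0.04, not called with replicate pairs summed (adjusted p = 0.0579).

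The label of the cells was set against markers of dendritic cells and of other types. All 20 dendritic cell genes were tested, 10 rose and 7 fell (median 0.19). Itgax, the integrin CD11c, was at 1152, 1129, 1244 and 1214 CPM untreated and 1110, 1109, 1076 and 1088 CPM with LPS, a change of -0.11 ± 0.05. The LPS libraries all lay below the untreated ones, but this change was not called (adjusted p = 0.0637). Zbtb46, a factor of conventional dendritic cells, was at 13.2 to 16.6 CPM untreated and 18.6 to 19.9 CPM with LPS (0.34 ± 0.07), and Flt3, the growth factor receptor of their precursors, at 1.9 to 2.21 and 1.44 to 1.89 CPM (-0.32 ± 0.12). The change of Flt3 was not called with replicate pairs summed (adjusted p = 0.074). Spi1, the factor PU.1, rose by 0.64 ± 0.06 and Irf8 by 1.31 ± 0.04. Csf1r, the receptor for the macrophage growth factor, fell by 0.74 ± 0.05 and Klf4 by 1.60 ± 0.11. Of the cross-presenting subset's markers Xcr1 rose by 2.37 ± 0.19 (Xcr1 at 2.2 to 2.93 CPM with LPS), and Clec9a fell by 1.75 ± 0.10.

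Markers of other cells were present. The 8 tested macrophage genes summed to 691 to 856 CPM untreated and 1489 to 1632 CPM with LPS, with 6 rises and 1 fall. Adgre1 (F4/80) rose by 0.77 ± 0.05, and the complement gene C1qa changed by 0.13 ± 0.09 and was not called. Vsig4 and Timd4, which mark resident macrophages, had 0 and 11 counts over the 8 libraries. The eosinophil list had sums of 835 to 1121 CPM untreated and 995 to 1067 CPM with LPS, with 2 rises and 1 fall of 8 genes and with Prg2, a granule protein, at 467 to 714 and 599 to 648 CPM. In the neutrophil list 3 of 12 genes rose and 1 fell, and the sums were 1127 to 1766 and 1338 to 1424 CPM. S100a8, a neutrophil calcium-binding protein, was at 498, 542, 348 and 341 CPM untreated and 354, 362, 362 and 337 CPM with LPS. Untreated replicates 1 and 2 were the highest. With replicates 1 and 2 alone, 2 neutrophil genes rose and 6 fell, and with replicates 3 and 4 alone 9 rose and 1 fell.

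The remaining lists were low. Mast cell and basophil genes summed to 36.8 to 54.9 CPM untreated and 238 to 257 CPM with LPS. Hdc, the histamine-forming enzyme, alone made up most of the second sum, with a rise of 4.06 ± 0.13 (untreated 8.85 to 16.1 CPM, LPS 206 to 229 CPM). The defining protease gene Cpa3 was at 4.06 to 9.16 and 5.36 to 7.17 CPM. Plasmacytoid dendritic cell genes summed to 36.9 to 39.1 and 94.4 to 106 CPM, mostly Tcf4, and their defining gene Siglech had 0 counts untreated and 4 with LPS. Of the erythroid genes, Car1 had 0 counts in all 8 libraries. T, NK and B cell genes summed to at most 2.91 CPM in any library and erythroid genes to at most 1.66. Stromal genes summed to 24.2 to 34.5 CPM untreated and 14.3 to 15.8 CPM with LPS. The lower sum does not describe the whole list, in which 2 of 6 tested genes rose and 1 fell (median 0.51). The part of these cells in the changes described above was not tested.

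Beyond the lists, the largest rises of named genes at 5 CPM or more held several with little textbook role in these cells. Clic5, of the chloride intracellular channel family, rose by 9.46 ± 0.28, with 4 counts over the untreated libraries and 19.3, 15, 16.2 and 16.9 CPM with LPS. Thbs4, a thrombospondin of the extracellular matrix, rose by 7.91 ± 0.20 (Thbs4 at 9.97 to 11.5 CPM with LPS). Ms4a4c, a membrane protein of the MS4A family, rose by 8.21 ± 0.32 and Ifit1bl1 by 8.21 ± 0.32. Calhm6, of the calcium homeostasis modulator family, rose by 7.70 ± 0.18. Apol9a and Apol9b, a near-identical pair of apolipoprotein L genes, rose by 7.91 ± 0.38 and 7.89 ± 0.30. Slc1a2, a glutamate transporter chosen after its values were seen, was at 1.15, 1.05, 0.754 and 0.67 CPM untreated and 131, 138, 143 and 137 CPM with LPS. It was under 2 CPM without LPS in every library, and rose by 7.25 ± 0.09.

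Falls were ranked among named genes at 5 CPM or more in the untreated group whose groups did not overlap, and 3 genes below that level had falls of more than 6. Ina, the intermediate filament protein α-internexin (ENSMUSG00000034336, chromosome 19, 47014698 to 47025327, plus strand), was at 5.09, 5.94, 5.71 and 6.09 CPM untreated and 0.0898, 0.161, 0.181 and 0.19 CPM with LPS. Its LPS libraries were all under 1 CPM, and it fell by 5.16 ± 0.27. Fam198b was at 26.1, 25.7, 29.4 and 25.7 CPM untreated and 1.68, 1.42, 1.01 and 0.734 CPM with LPS, a fall of 4.47 ± 0.13. Ksr2, a scaffold of Ras signalling, and Tpm2, a tropomyosin, fell by 4.33 ± 0.14 and 4.31 ± 0.21. Deptor, an inhibitor of mTOR, fell by 3.78 ± 0.14 (untreated 12.8 to 16 CPM, LPS 0.789 to 1.2 CPM). Daglb, a lipase that makes the endocannabinoid 2-arachidonoylglycerol, fell by 3.85 ± 0.09 (untreated 35.1 to 44.6 CPM, LPS 2.46 to 3.05 CPM). Steap3, an endosomal ferrireductase, fell by 4.03 ± 0.19 and Ckb, brain-type creatine kinase, by 3.65 ± 0.11 (untreated 78.9 to 94.6 CPM, LPS 6.83 to 7.22 CPM). Pald1, Prune2, Aatk, Ankrd63, Tacc2 and Scel fell by 3.74 to 4.23.

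LPS and zymosan were then compared directly in WT cells, since both sets of treated cells were measured against the same untreated libraries. Zymosan is a preparation of yeast cell wall that dectin-1 and TLR2 sense. Of 14188 genes 3106 were higher with LPS (21.9%) and 3481 lower (24.5%), together 46.4%. With replicate pairs summed the numbers were 1979 and 2280. The differences were smaller than those against untreated cells, and none of the genes named below differed by more than 2.61 on the log2 scale.

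Antiviral effectors were higher with LPS than with zymosan in 25 of 26 cases and lower in none (median 0.74, against -0.02 for all tested genes). All 13 GTPase genes were higher (median 0.87), as were 21 of 25 MHC class I genes (median 0.49). Rsad2 was at 1821 to 2178 CPM with zymosan and 4191 to 5042 CPM with LPS, a difference of 1.22 ± 0.21 (adjusted p = 3.29e-05). Iigp1 was at 46.5 to 70.6 and 197 to 236 CPM, a difference of 1.92 ± 0.15. Tap1 differed by 0.56 ± 0.05. Ifnb1 was not called between the stimuli (-0.52 ± 0.22, adjusted p = 0.061). With replicate pairs summed the counts were 19 of 26 antiviral genes, 13 of 13 GTPase genes and 20 of 25 class I genes.

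Cytokines and chemokines were divided between the stimuli, with 10 higher and 13 lower of 28 cytokine genes and 6 higher and 7 lower of 19 chemokine genes. With replicate pairs summed 8 cytokine genes were higher and 10 lower, and 6 chemokine genes were higher and 5 lower. The balance of the chemokines thus depends on the setting. On the side of LPS, Il12b was at 631 to 789 CPM with zymosan and 2737 to 2980.3 with LPS (2.02 ± 0.08), Cxcl9 differed by 2.04 ± 0.11 and Ccl5 by 1.57 ± 0.09. On the side of zymosan, Csf3, the granulocyte growth factor, was at 26.6 to 27.8 CPM with zymosan and 4.9 to 5.9 with LPS (-2.33 ± 0.11), and Tnf differed by -1.06 ± 0.07. Il6 (0.00 ± 0.09, adjusted p = 0.968) and Il10 (0.03 ± 0.09, adjusted p = 0.803) were not called. Their levels with both stimuli overlapped, Il6 at 524 to 592 CPM with zymosan and 516 to 604 with LPS, and Il10 at 12.5 to 15.2 and 13.8 to 16.

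Genes outside these lists were among those with the largest differences at 5 CPM or more in the higher group. Thbs4 (2.61 ± 0.11), U90926 (2.59 ± 0.11), Kctd14 (2.49 ± 0.19), Gpr31b (2.39 ± 0.14) and Ccr4, a chemokine receptor (2.25 ± 0.10), were higher with LPS. Hepacam2 (-2.22 ± 0.17), Egr3 (-2.03 ± 0.14), Aatk (-1.87 ± 0.17) and Cdh1 (-1.78 ± 0.07) were lower with LPS. Below that level with both stimuli, Ksr2 (-2.55 ± 0.16), Ina (-2.49 ± 0.34) and Fam198b (-1.97 ± 0.15) were also lower. Cdh1 was at 19.2 to 21.5 CPM with zymosan, between the LPS and the untreated libraries. The receptor gene Tlr4, lower with LPS than without, was also lower with LPS than with zymosan (-0.69 ± 0.06), at 156 to 182 CPM in the zymosan libraries. Sterol and fatty acid synthesis genes were lower with LPS in 17 of 24 cases and higher in 1, and 11 of 21 TCA genes were lower and 1 higher. With replicate pairs summed 7 TCA genes were lower.

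**Figure D5:**
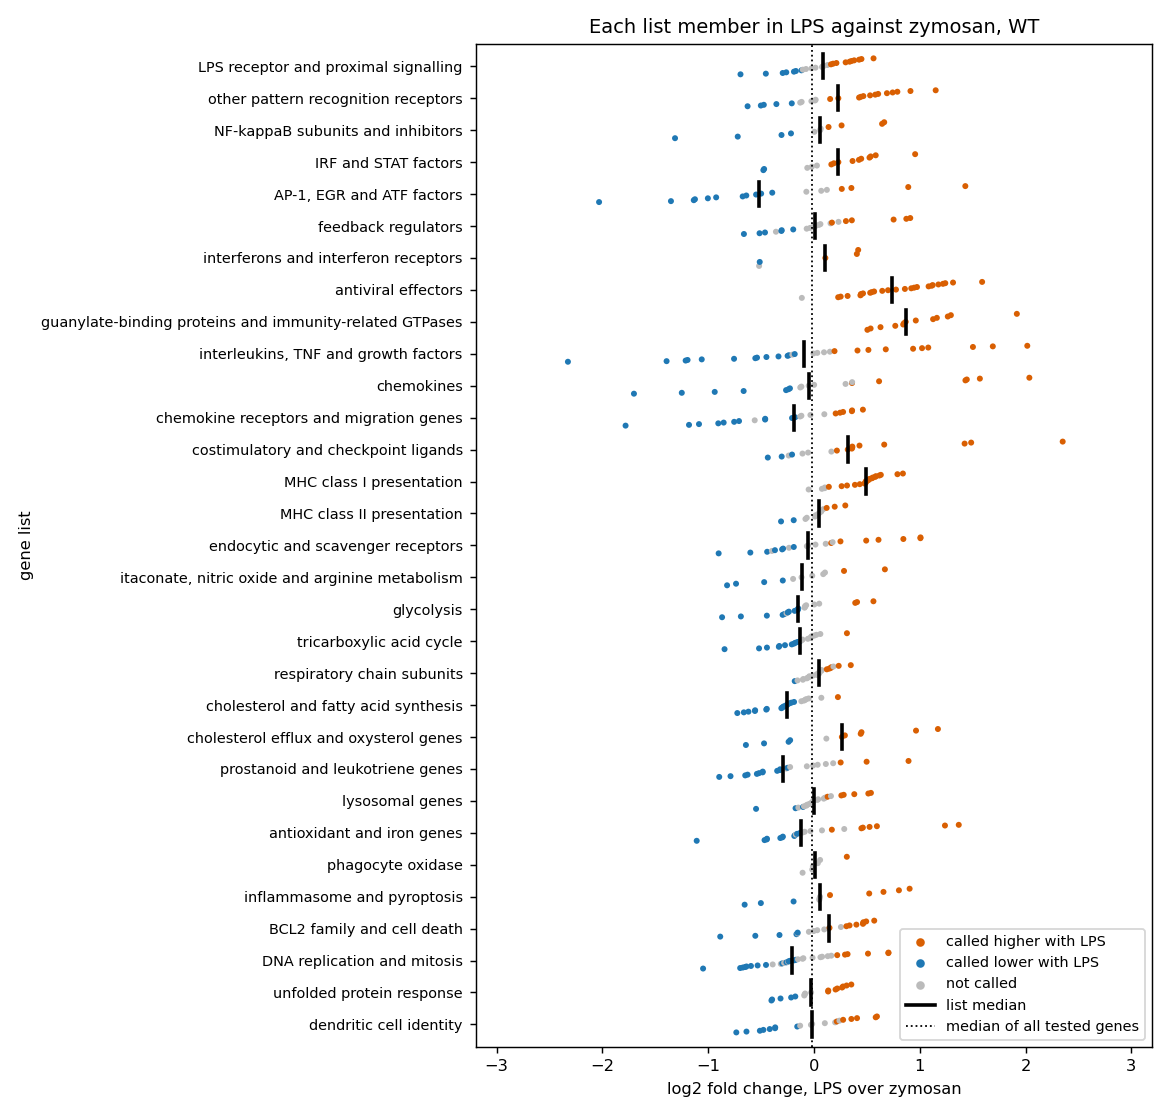
Log2 fold change, LPS over zymosan in WT cells (x axis), of each tested member of 31 gene lists (y axis), with colours and lines as in the plot of the response to LPS. The antiviral, GTPase and class I lists lie to the right of the dotted median, with medians of 0.74, 0.87 and 0.49. The AP-1 and EGR list lies furthest left, at -0.52.

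Finally the LPS response of WT cells was set against that of cells labelled KO, which shares no library with it. Ern1, the gene named in the genotype label, was at 40.2 to 43.3 CPM in untreated WT and 48.2 to 54.6 CPM in untreated KO libraries, and at 27.1 to 29.9 and 36.6 to 41.8 CPM with LPS. Its whole-gene count was thus not lower in libraries labelled KO, and it does not check a deletion of single exons. Most of the WT response had the same sign in the other genotype. Of 3719 genes that changed more than 2-fold in WT, 3701 had the same sign in KO and 3530 were also called in the same direction. By a test of the difference between the responses, 654 genes (4.61%) had a higher and 828 (5.84%) a lower log2 response in cells labelled KO, together 10.4%.

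This count rests on how the replicates are treated. With replicate pairs summed only 5 of 15378 genes were called (0.0325%), namely Myc, Nppc, Commd10, Cyp26b1 and Il18bp, of which Cyp26b1 and Il18bp were named after their values were seen. Commd10 was at 24.3 to 26.6 CPM untreated and 14.3 to 15.2 CPM with LPS in WT, and at 32.5 to 35.9 and 44.5 to 49.8 CPM in KO. It fell in WT (-0.80 ± 0.05) and was higher with LPS in KO (0.49 ± 0.04), a difference of 1.29 ± 0.06 (adjusted p = 2.1e-12). Myc fell in WT by 1.90 ± 0.05 and had a change of -1.08 ± 0.04 in KO, a difference of 0.83 ± 0.06 (adjusted p = 1.49e-08). Nppc, a natriuretic peptide gene, and Cyp26b1, which degrades retinoic acid, differed by -1.39 ± 0.17 and -1.01 ± 0.12. For genes of the response described above, the log2 responses of Cxcl9 and Calhm6 were lower in KO, with differences of -1.66 ± 0.53 and -1.88 ± 0.40, calls that ended with pairs summed (adjusted p = 0.301 and 0.15). The responses of Tlr4 (0.09 ± 0.09) and Il12b (-0.27 ± 0.15) were not called different (adjusted p = 0.535 and 0.279).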

How the data were processed

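Libraries of WT and KO dendritic cells were grouped by their genotype and treatment labels. The authors deposited 1 table of whole-number counts per gene. Bowtie2, RSEM 1.2.31, DESeq2 and the build mm10 are named in the submitters' processing notes, with no role stated. RSEM shares out reads that fit several genes, so near-identical genes (Apol9a and Apol9b, Tgtp1 and Tgtp2, Ifit3 and Ifit3b, and the Gbp, Oas1, Slfn, H2 and Bcl2a1 families) have less certain separate values. Strand is not given in the sources used here, so overlapping genes cannot be told apart.

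From these counts edgeR 4.0.16 in R 4.3.3 (filterByExpr, TMM, glmQLFit and glmQLFTest) was fitted to all 24 libraries with 1 mean per group. Genes with an adjusted p (Benjamini-Hochberg) under 0.05 were called. Of 38887 genes 14809 had no count and 14188 were tested. Totals of 32223256 to 46927434 counts limit genes of a few counts, for which exact binomial intervals (95%, counting error only) replace fitted ratios at 1 to 3 counts. Principal components used log2 CPM with a prior count of 2. The fit was tested on simulated counts. Gene names and positions come from GENCODE M21 (GRCm38, named for 96.6% of identifiers). Promoter windows of RefSeq (GRCm38.p6) were matched by symbol for 10444 tested genes.

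The comparisons, members and gene lists were chosen with earlier results of these data known. Genes named are fixed anchors of each list, up to 3 called members with the largest rise and fall per list, members that moved against their list, the 15 largest rises and falls at 5 CPM or more without overlap between the groups, and the 8 largest differences each way in the other comparisons. Alox5ap, Atf6, Cxcl1, Cxcl2, Fh1, Gbp2, Idh2, Idh3b, Idh3g, Ikbke, Il12a, Il15, Il23a, Il27, Irf2, Irf4, Irf5, Lta4h, Ltc4s, Psmb6, Psmb7, Psmb8, Psmb10, Samd9l, Slc7a2, Tbk1, Ticam1, Tnfsf10 and Vegfa were added from the lists after their values were seen. Some genes are not reported here. Alternatives were DESeq2 1.42.0, its size factors, no filter, fewer libraries, replicate pairs summed and a replicate block.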

Additional observations from a re-analysis of the deposited data

Results flagged for a closer look

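Within groups of 4 libraries, 1 library stood apart in 26 of 552 checks of the named genes by a gap that took most of the group's range (Dixon's 95% limit). Chance gives about 1 in 20. The untreated replicate 1 lay above the other 3 for Slc40a1 (6.66 CPM against 6.44 to 6.47). Below the others, untreated replicate 1 was so placed for Psmb8 (159.8 CPM against 177 to 179). Below the others, untreated replicate 2 was so placed for Deptor (12.8 CPM against 15.5 to 16). The untreated replicate 3 lay above the other 3 for Apol9a (0.0862 CPM against 0) and Fam198b (29.4 CPM against 25.7 to 26.1). Below the others, untreated replicate 3 was so placed for Il15 (4.1 CPM against 4.83 to 4.89) and Zfp36 (85 CPM against 92.4 to 93.9). The untreated replicate 4 lay above the other 3 for Ifnb1 (0.0383 CPM against 0), Myd88 (90.7 CPM against 86.9 to 87.5) and Spi1 (196 CPM against 178 to 180.3). The LPS replicate 1 lay above the other 3 for Aldh18a1 (8.51 CPM against 6.65 to 6.88) and Kctd14 (8.36 CPM against 6.91 to 7.04). Below the others, LPS replicate 1 was so placed for Ccnd2 (1107 CPM against 1173 to 1182) and Prg2 (599 CPM against 642 to 648). Below the others, LPS replicate 2 was so placed for Ctsl (1735 CPM against 1854 to 1861), Iigp1 (197 CPM against 234 to 236) and Psmb6 (426 CPM against 444 to 447). The LPS replicate 3 lay above the other 3 for Cd163 (0.0518 CPM against 0.0268 to 0.0299). Below the others, LPS replicate 3 was so placed for Lcn2 (962 CPM against 1013 to 1019). The LPS replicate 4 lay above the other 3 for Junb (495 CPM against 402 to 409.6), Scel (0.544 CPM against 0.44 to 0.455), Socs1 (247 CPM against 169 to 177), Socs3 (1254 CPM against 1081 to 1103), Spi1 (329 CPM against 267 to 273) and Tmem173 (54.1 CPM against 49.6 to 50). Below the others, LPS replicate 4 was so placed for Deptor (0.789 CPM against 1.18 to 1.2). LPS replicate 4 held 7 of these flags, more than any other library. The 26 flags in 552 checks are near the share that chance gives, and flags within 1 library need not be independent. Whether this library differs from the others was not tested.

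The LPS response differed between the genotype labels, by the test of the difference itself, for 92 of the 276 named genes, against 10.4% of all tested genes. The named genes include those chosen for the largest such differences, which raises their count. All but 5 of these called genes lost the call with replicate pairs summed (Myc, Nppc, Commd10, Cyp26b1 and Il18bp kept it). Each value is the log2 response of cells labelled KO minus that of WT cells, so a negative value marks a lower log2 response in KO. Of the 21 higher values 19 were of genes with a negative log2 change in WT. Of the 71 lower values 69 were of genes with a positive log2 change in WT. A value that runs against the WT change marks a smaller response in KO or, as for Commd10, a reversed one. Higher values were those of Ankrd63 (1.39), Commd10 (1.29), Tacc2 (1.10), Aatk (1.09), Pald1 (1.05), Ptgs1 (0.99), Myc (0.83), Hdc (0.82), Ccnb1 (0.80), Scel (0.72) and Egr3 (0.68). They were followed by Dhcr7 (0.66), Ccna2 (0.60), Fasn (0.59), Cdh1 (0.57), Daglb (0.52), Bcl2 (0.49), Ltb4r1 (0.49), Fscn1 (0.46), Ccnd1 (0.33) and Irak1 (0.21). Lower values were led by Calhm6 (-1.88), Cxcl9 (-1.66), Nppc (-1.39), Ch25h (-1.07), Cyp26b1 (-1.01), Dusp2 (-0.99), Il18bp (-0.97), Slc40a1 (-0.92), C1qa (-0.88), Il27 (-0.83) and Gbp2 (-0.80). Next came Il18 (-0.76), Fcgr1 (-0.76), Fcgr4 (-0.73), Slc1a2 (-0.72), Havcr2 (-0.67), Ptgs2 (-0.67), Batf2 (-0.66), Socs1 (-0.65), Cd40 (-0.64), Ly96 (-0.59) and Il15 (-0.58). Smaller differences were seen for Casp4 (-0.58), Cd200 (-0.57), Psmb10 (-0.55), Batf (-0.55), Clec4e (-0.53), Il6 (-0.53), Slc2a6 (-0.53), Ccl5 (-0.50), Tnfaip3 (-0.50), Fpr1 (-0.49) and Nfkbib (-0.47). After these stood Manf (-0.47), Ifi30 (-0.47), Casp1 (-0.46), Il1b (-0.46), Acod1 (-0.46), Mlkl (-0.45), Gch1 (-0.43), Tnf (-0.42), Tcf4 (-0.42), Hmox1 (-0.41) and Pfkfb3 (-0.41). Values nearer 0 were those of H2-T22 (-0.40), Socs3 (-0.40), Peli1 (-0.38), Nlrp3 (-0.38), Zfp36 (-0.36), Nos2 (-0.36), Cd14 (-0.36), Cd274 (-0.36), Hspa5 (-0.34), Npc2 (-0.34) and Spi1 (-0.33). The next were Uqcrfs1 (-0.33), Myd88 (-0.31), Nfkb2 (-0.31), Tap1 (-0.31), Nfkbia (-0.30), Irf8 (-0.29), Sod2 (-0.28), Cflar (-0.26), Psmb9 (-0.25), Adgre1 (-0.25) and Psmb8 (-0.24). The smallest were Rela (-0.23), Psmb6 (-0.23), Tbk1 (-0.22), Ifnar2 (-0.22) and Atf6 (-0.20).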

How the results depend on the processing

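The counts of genes changed by LPS in WT cells stayed within 1.5 times of 10729 called genes under all alternatives run. These were DESeq2, its size factors in edgeR, no filter on low counts, a fit of the compared groups alone, replicate pairs summed, either pair of replicates alone, and leaving out each library. Without 1 library the call counts were 10430 to 10514 (4957 to 5014 higher, 5463 to 5525 lower). The balance of direction was less stable. The main fit had 5100 higher and 5629 lower, DESeq2 had 5449 and 5296, and its size factors in edgeR gave 5335 and 5343. Whether more genes rose or fell thus depends on the method. Of LPS against zymosan, 5975 to 6301 genes were called without 1 library, and 4259 with replicate pairs summed (1979 higher, 2280 lower). The genotype difference of the LPS response moved most. With replicate pairs summed 5 genes were called (2 higher, 3 lower), and with replicates 1 and 2 alone 2975 (1379 higher, 1596 lower). Without 1 library there were 999 to 1600 called genes (434 to 700 higher, 565 to 900 lower), and the lowest count of higher genes, 434, was that without LPS replicate 4 of WT. The cause of these moves was not tested, beyond that summing leaves 2 sums per group.

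The replicate number was also used as a block. Same-numbered untreated and LPS libraries had correlations of 0.10, 0.01, 0.13 and 0.24 in their deviations from the group means. For LPS replicates 1, 3 and 4 the same-numbered untreated library had the highest correlation. For LPS replicate 2 it was untreated replicate 1 (0.21). These low correlations do not settle whether the numbers pair the samples, and the main fit used no pairing. With the replicate block 10903 genes were called for LPS (5175 higher, 5728 lower), 7045 for LPS against zymosan, and 2396 for the genotype difference (1040 higher, 1356 lower).

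Of the 276 named genes, 254 kept direction and side of the threshold for LPS under all alternatives run. Small called changes were lost under some: Flt3, Irak4 and Tab1 with DESeq2, and these with Atf4, Ifi30, Insig1, Pf4, Ptger4 and Sucla2 with replicate pairs summed. Uncalled changes that turned sign were those of Xbp1 (0.01 with DESeq2, 0.01 with its size factors, 0.05 with replicates 3 and 4 alone, and -0.06 to 0.01 without 1 library), Cpa3 (0.40 with replicates 3 and 4 alone, -0.21 to 0.19 without 1 library), Ppbp (0.36 with replicates 3 and 4 alone, -0.18 to 0.03 without 1 library), Prg2 (-0.16 with replicates 1 and 2 alone, 0.00 to 0.20 without 1 library), S100a8 (0.03 with replicates 3 and 4 alone), Vegfa (-0.04 with replicates 1 and 2 alone, -0.01 to 0.04 without 1 library) and Irf5 (-0.01 to 0.04 without 1 library). The cause was not tested. Mki67 was called higher with DESeq2. Depth limits genes such as Ifnb1, with 2 untreated counts.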
